A study of Mus musculus with 16 samples.

Results

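The 8 genes described here are usually taken as marks of astrocytes: Gfap, Aqp4, Slc1a2, Slc1a3, Aldoc, Aldh1l1, S100b and Slc39a12. They were found by symbol among the probes (oligonucleotide sets for 1 transcript) that carry a single gene symbol, which gave 25 probes for 8 genes, of 45037 probes and 18193 genes with a single symbol on the array. Each of 16 Affymetrix mouse genome arrays measured total RNA of the whole left cochlea of 1 male DBA/2J mouse. The M+V group (n = 6) received L-methionine (500 mg/kg), a methyl donor, and valproic acid (300 mg/kg), an inhibitor of histone deacetylases, in 0.1 M sodium bicarbonate by subcutaneous injection once daily for 8 weeks from 4 weeks of age, and was 12 weeks old at the end. The control group (n = 5) received the vehicle on the same schedule and was also 12 weeks old, and the 4 weeks group (n = 5) was taken untreated at 4 weeks of age. All 3 groups therefore share the DBA/2J background, which carries variants of Cdh23 and Fscn2 and loses hearing progressively, and the 4 weeks group differs from the control group in age as well as in injections.

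Astrocytes are glia of the central nervous system that take up glutamate released at synapses, clear potassium and water through channels at their end-feet on blood vessels, and are coupled to one another by gap junctions. In the auditory nerve they line its central part as far as the glial transition zone, beyond which Schwann cells and satellite glia ensheath the spiral ganglion neurons. Several genes of the set are also made by cochlear cells outside the nervous system or by peripheral glia, among them Aqp4 and Slc1a3 in supporting cells of the organ of Corti and S100b in Schwann cells. In RNA of a whole cochlea, a smaller number of cells of a type and less RNA per cell cannot be told apart.

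The labelled tissue was checked first. Of 12 genes that mark cells of the cochlea, such as Coch and Otos of the spiral ligament and Kcne1 of the stria vascularis, 10 were at or above the array median (a log2 signal of 6.90) in all 16 arrays. Tecta of the tectorial membrane reached the median in 10 arrays and Slc26a5, the outer hair cell motor prestin, in 0. The level of the bacterial bioB transcript, spiked in before hybridisation, divided the arrays at 9.02 to 9.74 and at 5.98 to 6.36. The higher level held M+V replicates 1 and 2, control replicate 1 and all 4 weeks arrays, and the lower level held the other 4 M+V and the other 4 control arrays. M+V replicate 1 stood apart in its erythroid genes, whose mean lay 4.55 log2 units below its 16-array mean (Alas2, of haem synthesis in red cells, 4.02 and Slc4a1, the red cell anion exchanger, 5.22; named after their values were seen), while the other 15 arrays lay between -0.24 and 0.70.

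Every gene of the set had a brightest probe at or above the array median in all 16 arrays, and that probe stands for the gene below. The other 17 probes were mostly dim: 9 of them were under the array median in every array, including both other probes of Gfap and all 4 other probes of Slc1a2. The genes lie at chromosome 11: 102887336-102897200 (Gfap), 18: 15389394-15410982 (Aqp4), 2: 102658239-102790784 (Slc1a2), 15: 8634124-8710807 (Slc1a3), 11: 78323073-78327781 (Aldoc), 6: 90550768-90599171 (Aldh1l1), 10: 76253836-76261319 (S100b) and 2: 14388316-14494977 (Slc39a12) of GRCm38.p6.

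No probe of the set passed an adjusted p of 0.05 in any of the 3 comparisons, in limma's moderated test over all 45037 probes with Benjamini-Hochberg adjustment. M+V against control called 0% of all probes in either direction. M+V against 4 weeks called 0.666% of all probes higher and 1.19% lower, and control against 4 weeks called 0.118% higher and 0.326% lower, with 0 of the 25 astrocyte probes among them. At an unadjusted p under 0.05, the M+V against control comparison counted 0 probes of the set higher (3.71% of all probes) and 3 lower (4.08% of all probes): Slc1a2, Aldoc and Slc39a12. The count for M+V against 4 weeks was 0 in both directions (7.67% and 7.34% of all probes), and for control against 4 weeks it was 4 higher (4.68%) and 0 lower (5.23%). By direction alone, 9 of the 25 probes were above and 16 below 0 for M+V against control (52.1% and 47.9% of all probes), 6 above and 19 below for M+V against 4 weeks (50.8% and 49.2%) and 11 above and 14 below for control against 4 weeks (49.9% and 50.1%). The values of 0 probes of the set were wholly apart between M+V and 4 weeks (1.16% of all probes higher and 1.57% lower) or between M+V and control (0.444% and 0.437%). The log2 fold changes of the 8 genes had a median of -0.28 for M+V against control, -0.12 for M+V against 4 weeks and 0.25 for control against 4 weeks, beside medians over all probes of 0.01, 0.01 and -0.00. The M+V and control arrays stand in 2 of these comparisons each, and the 4 weeks arrays in 2, so the comparisons are not independent of one another.

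**Figure D1:**
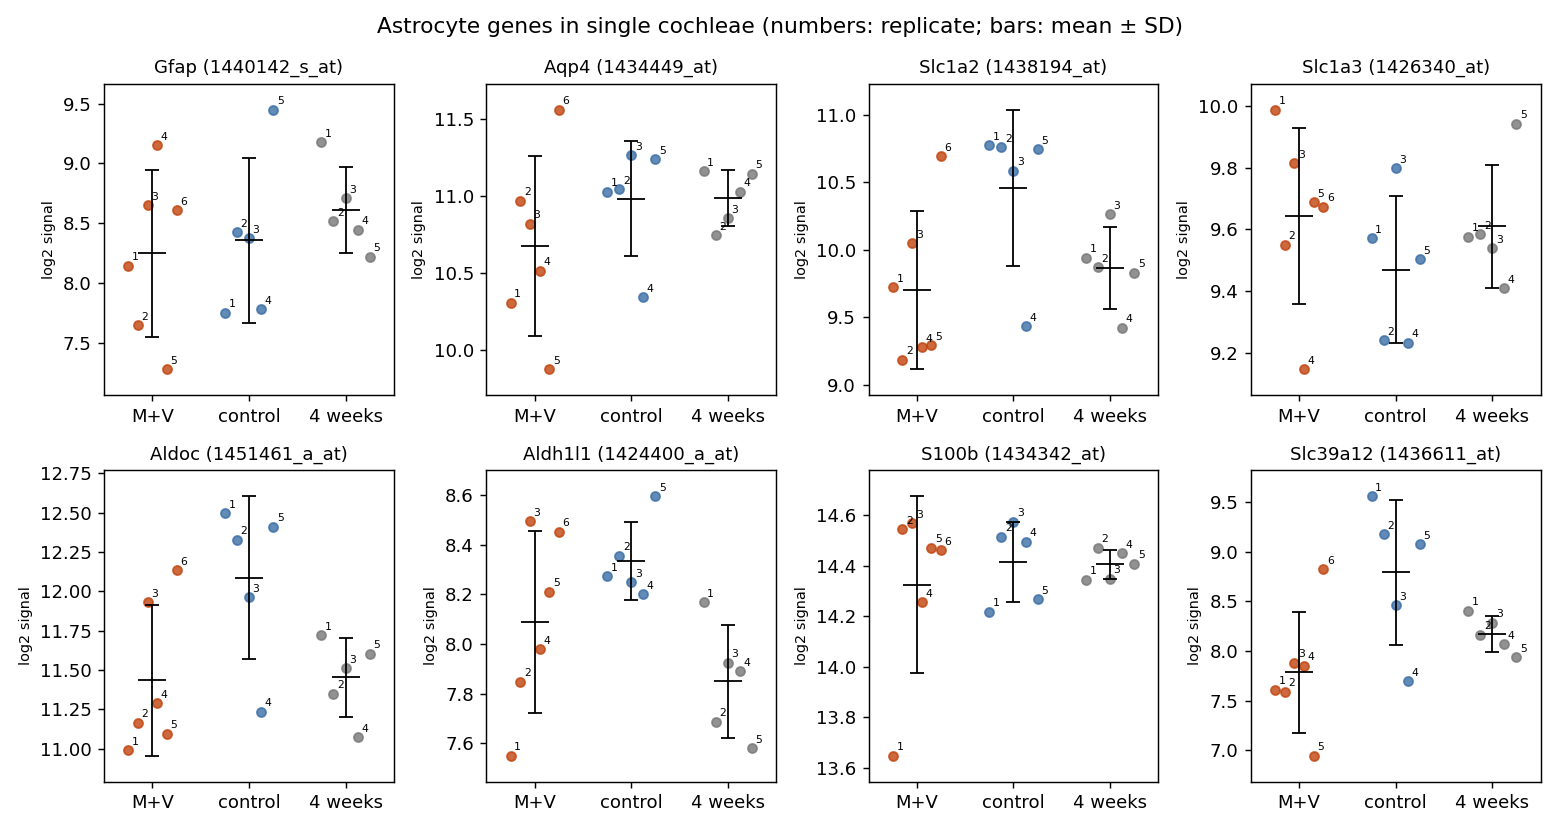
Log2 signal (vertical axis) of the brightest probe of each astrocyte gene in every cochlea, by group; points are single arrays numbered by replicate, and bars give the mean and SD. For Slc1a2, Aldoc and Slc39a12 the M+V arrays other than replicate 6 sit below the control arrays other than replicate 4, while S100b has 1 array apart, M+V replicate 1 at 13.65.

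Slc1a2 encodes GLT-1, the main glutamate transporter of astrocytes. Its log2 signal was 9.72, 9.18, 10.05, 9.28, 9.29 and 10.69 in M+V replicates 1 to 6, against 10.77, 10.76, 10.59, 9.43 and 10.74 in control replicates 1 to 5, and 9.94, 9.87, 10.26, 9.42 and 9.83 in 4 weeks replicates 1 to 5. M+V replicate 6 was the only M+V array inside the span of the 4 higher control arrays, and control replicate 4 lay among the 5 lower M+V arrays, so the groups overlapped. The mean was 9.70 ± 0.59 in M+V, 10.46 ± 0.58 in control and 9.86 ± 0.30 in 4 weeks cochleae (SD). M+V differed from control by -0.76 on the log2 scale (SE 0.27, 95% interval -1.32 to -0.19, limma adjusted p = 0.589). Control differed from 4 weeks by 0.59 (SE 0.28, adjusted p = 0.497), and M+V from 4 weeks by -0.16 (SE 0.27, adjusted p = 0.832).

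Aldoc encodes aldolase C, the brain form of the glycolytic enzyme, found in astrocytes and in Purkinje cells of the cerebellum. Its log2 signal was 10.99, 11.16, 11.93, 11.29, 11.10 and 12.13 in M+V, against 12.50, 12.33, 11.96, 11.24 and 12.41 in control, and 11.72, 11.35, 11.51, 11.07 and 11.60 in 4 weeks cochleae. M+V replicate 6 lay among the 4 higher control arrays, M+V replicate 3 just below them and control replicate 4 among the 5 lower M+V arrays, so the groups overlapped here too. M+V averaged 11.43 ± 0.48, control 12.09 ± 0.52 and 4 weeks 11.45 ± 0.25 (SD), a difference of -0.65 for M+V against control (SE 0.23, 95% interval -1.13 to -0.17, adjusted p = 0.589). Control differed from 4 weeks by 0.63 (SE 0.24, 95% interval 0.13 to 1.13, adjusted p = 0.359). The other Aldoc probe, which reached the array median in 4 arrays, gave 1.00 for the same comparison (SE 0.36, adjusted p = 0.326) and -0.48 for M+V against control (SE 0.34, adjusted p = 0.753).

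Slc39a12 encodes ZIP12, a zinc importer of the nervous system. Its log2 signal was 7.61, 7.59, 7.88, 7.85, 6.94 and 8.83 in M+V, against 9.56, 9.18, 8.46, 7.70 and 9.08 in control, and 8.41, 8.16, 8.29, 8.07 and 7.94 in 4 weeks cochleae. The lowest value lay in M+V replicate 5 and the highest in control replicate 1, and the groups overlapped through M+V replicate 6, above control replicates 3 and 4, and through control replicate 4, among the 5 lower M+V arrays. M+V averaged 7.78 ± 0.61, control 8.80 ± 0.73 and 4 weeks 8.17 ± 0.18 (SD). The difference between M+V and control was -1.01 (SE 0.30, 95% interval -1.64 to -0.38, adjusted p = 0.571). Slc39a12 was also among the genes that the study picked from these same arrays, so this difference is a description and not independent evidence. Control against 4 weeks gave 0.62 (SE 0.31, adjusted p = 0.531) and M+V against 4 weeks -0.39 (SE 0.30, adjusted p = 0.587).

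Because these 3 genes varied together over the arrays, the sequence around their annotated start sites is shown. Each window is mostly the sequence upstream of a RefSeq start site of GRCm38.p6 and ends shortly after it, and capitals mark a match to a motif that was searched on both strands. Aldoc has 2 such windows, and the Slc1a2 window and the later Aldoc window lie inside the gene.
Slc1a2, chr2:102706188-102706487, plus strand: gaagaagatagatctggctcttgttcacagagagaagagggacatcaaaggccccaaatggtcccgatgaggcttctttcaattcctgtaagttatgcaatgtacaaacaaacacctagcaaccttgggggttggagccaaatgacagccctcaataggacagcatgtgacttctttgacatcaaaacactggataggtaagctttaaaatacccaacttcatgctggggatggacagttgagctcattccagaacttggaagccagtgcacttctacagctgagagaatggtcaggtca
Aldoc, chr11:78322823-78323122, plus strand: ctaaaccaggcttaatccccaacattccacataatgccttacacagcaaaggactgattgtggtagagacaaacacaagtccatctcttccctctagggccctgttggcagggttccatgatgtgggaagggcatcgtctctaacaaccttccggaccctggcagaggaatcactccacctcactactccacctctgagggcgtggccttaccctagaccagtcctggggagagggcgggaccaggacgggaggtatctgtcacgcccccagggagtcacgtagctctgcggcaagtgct
Aldoc, chr11:78323948-78324247, plus strand: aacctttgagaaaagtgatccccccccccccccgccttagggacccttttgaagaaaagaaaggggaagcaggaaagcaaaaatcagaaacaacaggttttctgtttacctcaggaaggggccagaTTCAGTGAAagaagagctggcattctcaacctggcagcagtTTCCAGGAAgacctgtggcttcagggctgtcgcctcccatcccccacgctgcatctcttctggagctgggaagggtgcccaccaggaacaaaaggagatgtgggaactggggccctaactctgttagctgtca
Slc39a12, chr2:14388148-14388447, plus strand: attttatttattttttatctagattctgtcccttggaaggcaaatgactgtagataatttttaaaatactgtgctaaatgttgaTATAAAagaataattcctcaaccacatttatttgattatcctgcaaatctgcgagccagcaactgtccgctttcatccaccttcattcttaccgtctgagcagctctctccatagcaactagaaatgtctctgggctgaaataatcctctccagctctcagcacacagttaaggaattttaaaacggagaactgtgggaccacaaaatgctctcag
The motifs were the full palindromic site of nuclear factor I (NFI, a factor of astrocyte genes), the STAT site TTCNNNGAA (the factors downstream of cytokine receptors), the TATA box TATAAA, the CCAAT box and the E-box CACGTG. They occur in 0.0365%, 8.3%, 13.6%, 37.4% and 7.15% of 32851 windows of the same length. In these windows the 3 genes shared no match, but the sequence at the upstream end of Slc1a2 was not searched. The Slc1a2 window and the first Aldoc window held no match. The later Aldoc window held a pair of STAT matches at bases 127 to 135 and 168 to 176, and Slc39a12 held a TATAAA at bases 85 to 90. Among the other genes with a window, Gfap and Slc1a3 held 1 STAT match each and Slc1a3, Aldh1l1 and S100b held CCAAT boxes. Slc1a3 also held a TATAAA, on the minus strand at bases 90 to 95.

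**Figure D2:**
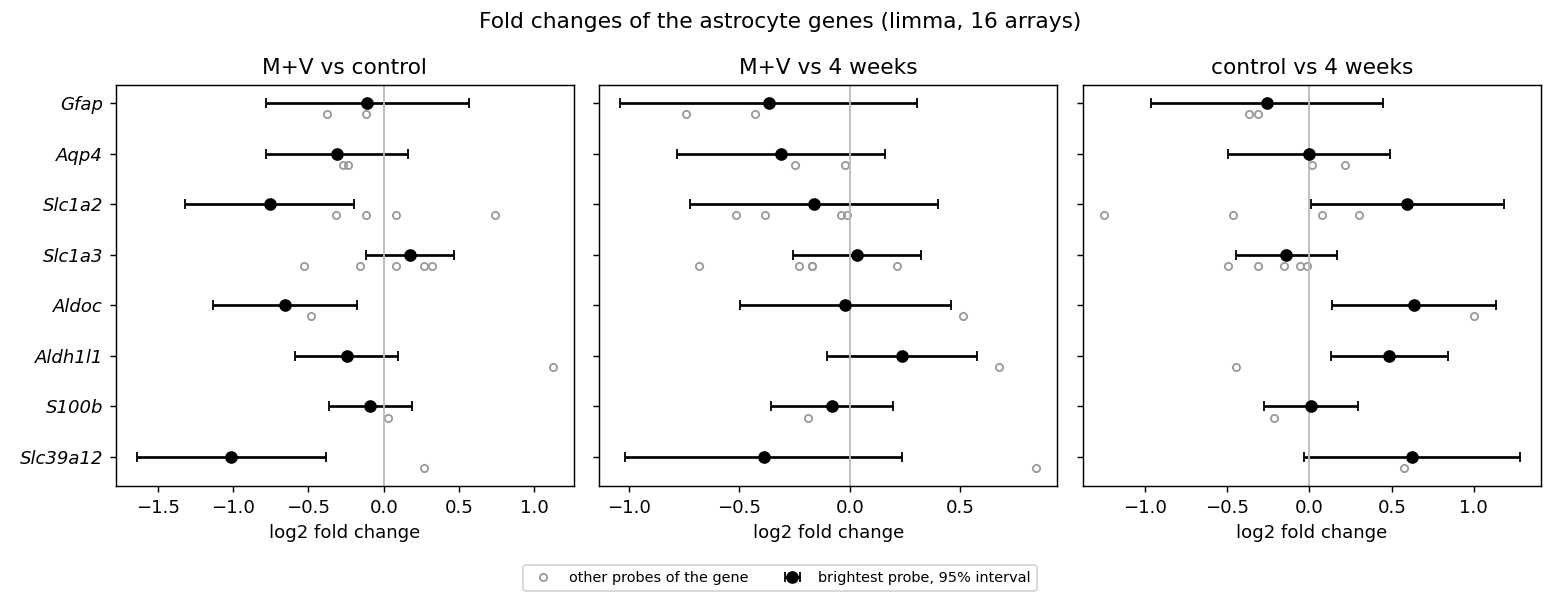
Log2 fold change (horizontal axis) of each astrocyte gene in the 3 comparisons; filled points and bars are the brightest probe with its 95% interval from limma, and open points are the other probes of the gene. The intervals of Slc1a2, Aldoc and Slc39a12 lie below 0 for M+V against control, and those of Slc1a2, Aldoc and Aldh1l1 above 0 for control against 4 weeks, before adjustment over all probes.

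Slc1a2, Aldoc and Slc39a12 also passed a fold over 1.5 with an unadjusted limma p under 0.05 as lower in M+V than in control, a rule that took 2.06% of all probes, and 0 probes of the set passed it as higher (1.39% of all probes). Their unadjusted p was 0.0111 for Slc1a2, 0.0102 for Aldoc and 0.00325 for Slc39a12. For control against 4 weeks the same rule took Slc1a2 and both Aldoc probes as higher (2.07% of all probes) and 0 as lower (2.09%), and for M+V against 4 weeks it took 0 in either direction (2.9% and 3.09%). Without control replicate 4 the M+V against control differences were -1.01 for Slc1a2, -0.87 for Aldoc and -1.29 for Slc39a12, with adjusted p = 0.338, 0.343 and 0.321. These were the largest differences of all fits that left out 1 array. The smallest were -0.65 for Slc1a2, without M+V replicate 2, and -0.55 for Aldoc and -0.82 for Slc39a12, without control replicate 1.

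The size of these differences was not the same at both bioB levels, and the difference between levels was not tested. With the level as a block they were -0.74 for Slc1a2, -0.63 for Aldoc and -1.04 for Slc39a12. Within the lower level (4 M+V and 4 control arrays) they were -0.55 (SE 0.36), -0.37 (SE 0.28) and -0.73 (SE 0.40). Within the higher level control has 1 array, replicate 1, which holds the highest Slc39a12 value of all 16 arrays, so the values there, -1.32, -1.42 and -1.96, are a description of that array against the M+V arrays of the same level. The sign was the same in both levels for all 3 genes.

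Slc1a3 encodes GLAST, the glutamate transporter shared by astrocytes and cochlear supporting cells. It had 9.99, 9.55, 9.81, 9.15, 9.69 and 9.67 in M+V, against 9.57, 9.24, 9.80, 9.23 and 9.50 in control, and 9.58, 9.58, 9.54, 9.41 and 9.94 in 4 weeks cochleae. The control and 4 weeks values all lay within the range of the M+V values. It was the only gene of the set with a positive value for M+V against control, at 0.17 (SE 0.14, 95% interval -0.12 to 0.47, adjusted p = 0.782). Its 5 other probes gave -0.53 to 0.32 for that comparison, and none of them passed.

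Gfap encodes the intermediate filament protein of astrocytes, which is also made by some Schwann and supporting cells. Its values were 8.15, 7.64, 8.65, 9.15, 7.28 and 8.61 in M+V, against 7.75, 8.42, 8.37, 7.78 and 9.45 in control, and 9.18, 8.52, 8.71, 8.45 and 8.22 in 4 weeks cochleae. The M+V values ran from 7.28 to 9.15 and the control values from 7.75 to 9.45, and the difference between M+V and control was -0.11 (SE 0.32, 95% interval -0.78 to 0.57, adjusted p = 0.953). The interval includes a difference as large as that of Aldoc. M+V against 4 weeks gave -0.37 (SE 0.32, adjusted p = 0.640). A dim Gfap probe, under the array median in all arrays, gave -0.43 (SE 0.28, adjusted p = 0.499) and passed only with the bioB level as a block (-1.03, SE 0.26, adjusted p = 0.0428).

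Aqp4 encodes the water channel of astrocyte end-feet, found in the cochlea in Hensen and Claudius cells. It had 10.31, 10.97, 10.82, 10.51, 9.88 and 11.56 in M+V, against 11.03, 11.04, 11.26, 10.34 and 11.24 in control, and 11.16, 10.75, 10.86, 11.03 and 11.14 in 4 weeks cochleae. Its highest and its lowest value were both in M+V arrays. M+V against control gave -0.31 (SE 0.22, 95% interval -0.78 to 0.16, adjusted p = 0.761), and control against 4 weeks -0.00 (SE 0.23, adjusted p = 0.999).

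Aldh1l1 encodes 10-formyltetrahydrofolate dehydrogenase, an enzyme of folate metabolism used to mark astrocytes throughout the brain. Its values were 7.55, 7.85, 8.50, 7.98, 8.21 and 8.45 in M+V, against 8.27, 8.36, 8.25, 8.20 and 8.60 in control, and 8.17, 7.69, 7.93, 7.89 and 7.58 in 4 weeks cochleae. Each control array lay above each 4 weeks array, which held for 1 probe of the set and for 1.23% of all probes. The control mean differed from that of 4 weeks by 0.48 (SE 0.17, 95% interval 0.13 to 0.84, limma adjusted p = 0.307). With the bioB level as a block that difference was 0.17 (SE 0.20, adjusted p = 0.810); 4 of 5 control arrays had the lower level and all 4 weeks arrays the higher. M+V against control gave -0.25 (SE 0.16, adjusted p = 0.732).

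S100b encodes a calcium-binding protein of astrocytes and Schwann cells. It had 13.65, 14.54, 14.57, 14.26, 14.47 and 14.46 in M+V, against 14.22, 14.51, 14.57, 14.50 and 14.27 in control, and 14.35, 14.47, 14.35, 14.45 and 14.41 in 4 weeks cochleae. All arrays but M+V replicate 1 lay within 14.22 to 14.57, and the other S100b probe was lowest in that array too, at 12.19 against 13.12 to 13.90 in the other M+V arrays. The 3 comparisons gave -0.09 (SE 0.13), -0.08 (SE 0.13) and 0.01 (SE 0.14), with adjusted p = 0.896, 0.832 and 0.994.

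The genes also differed in how much they spread within a group. The within-group SD was 0.61 for Gfap, 0.56 for Slc39a12, 0.51 for Slc1a2, 0.44 for Aldoc and 0.43 for Aqp4, larger than that of 91.5% to 97.7% of the probes whose mean reached the array median. It was 0.27 for Aldh1l1, 0.25 for Slc1a3 and 0.24 for S100b, larger than that of 65.8%, 56.8% and 53.3% of those probes. Deviations from the group means were then compared over the 16 arrays, which share their normalization, as a description. Of 28 pairs of genes, 3 had a Pearson r over 0.8: Slc1a2 with Aldoc (r = 0.88, Spearman rho 0.81), Aldoc with Slc39a12 (r = 0.85, rho 0.80) and Slc1a2 with Slc39a12 (r = 0.83, rho 0.75). Without the 2 arrays farthest from the median these were 0.75, 0.70 and 0.60. The 13 pairs that hold Slc1a3 or S100b had r between -0.24 and 0.48, and the 15 other pairs were all at 0.39 or more.

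Counted by array, the genes above their own 16-array mean were 1, 2, 6, 1, 3 and 8 of 8 in M+V replicates 1 to 6, against 5, 7, 7, 2 and 6 of 8 in control replicates 1 to 5, and 5, 3, 3, 3 and 3 of 8 in 4 weeks replicates 1 to 5. M+V replicate 6 was thus high for the whole set and control replicate 4 low for most of it.

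**Figure D3:**
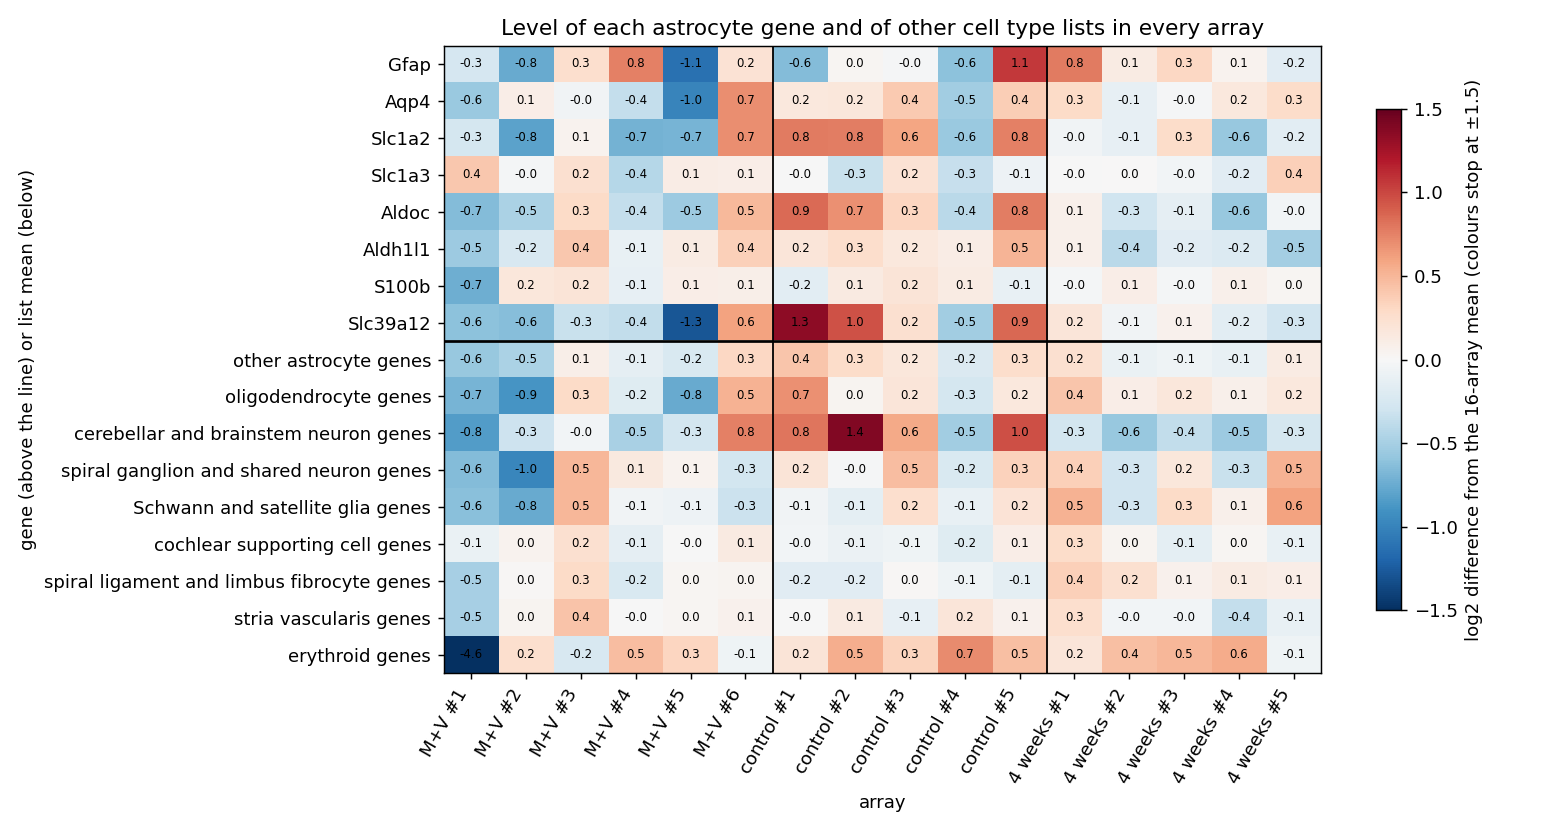
Log2 difference from the 16-array mean for each astrocyte gene (above the line) and for the mean of other gene lists (below) in every array, with M+V, control and 4 weeks arrays from left to right; red is higher and blue lower. M+V replicate 6 is above the mean in all 8 genes, control replicate 4 is low in most, and the erythroid genes of M+V replicate 1 lie 4.55 below their mean.

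Markers of other brain cells were high and low in the same arrays. M+V against control called 0% of all probes, so no list below could hold a gene past the adjusted threshold in that comparison. The 17 measured genes of cerebellar and brainstem neurons had a mean level of -0.83 to 0.76 in M+V (highest in replicate 6), -0.52 to 1.39 in control (lowest in replicate 4) and -0.57 to -0.26 in 4 weeks cochleae, relative to the 16-array mean. Their log2 fold changes had a median of -0.64 for M+V against control (3 above and 14 below 0, none past the adjusted threshold) and of 0.82 for control against 4 weeks (16 above and 1 below 0, 1 past it). That gene was Slc6a5, the glycine transporter of inhibitory neurons of the brainstem and spinal cord. Its log2 signal was 3.80, 4.54, 4.14, 1.34, 2.55 and 6.32 in M+V, and 6.93, 8.72, 6.03, 4.41 and 6.47 in control, against 4.32, 2.12, 0.30, 1.72 and 1.59 in 4 weeks cochleae. Control was higher than 4 weeks by 4.50 (SE 0.90, adjusted p = 0.0272). All 4 weeks and M+V values and those of control replicates 3, 4 and 5 lie below the array median, most 4 weeks values far below it. The size of that fold is therefore uncertain. The 3 brightest genes of the list, Calb1, Zic1 and Gad1, gave -0.28, -0.64 and -0.95 for M+V against control, none past the test. At an unadjusted limma p under 0.05, 8 of the 17 genes were lower in M+V than in control (4.08% of all probes) and 0 higher (3.71%). Pcp2 of Purkinje cells stayed below the array median in all arrays.

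The 17 measured oligodendrocyte genes had a mean level of -0.89 to 0.52 in M+V (highest in replicate 6), -0.26 to 0.69 in control (lowest in replicate 4) and 0.08 to 0.42 in 4 weeks cochleae, and a median fold change of -0.45 for M+V against control (2 above and 15 below 0, none past the test). At an unadjusted limma p under 0.05, 4 of the 17 were lower in M+V than in control (4.08% of all probes) and 0 higher (3.71%). Olig2 and Nkx6-2 were below the array median in all arrays, while Mbp, Cnp and Ugt8a, which Schwann cells also make, were the brightest, with -0.35, -0.28 and -0.45. Deviations of Aldoc correlated with those of the oligodendrocyte mean at r = 0.84 (rho 0.79) and of the neuron mean at r = 0.88 (rho 0.89), over 16 arrays. For Slc1a2 the values were 0.74 (rho 0.69) and 0.81 (rho 0.75), and for Slc39a12 0.77 (rho 0.65) and 0.78 (rho 0.72). Without the 2 arrays farthest from the median, r with the oligodendrocyte and the neuron mean was 0.74 and 0.74 for Aldoc, 0.59 and 0.51 for Slc1a2, and 0.74 and 0.47 for Slc39a12. With the 16 Schwann and satellite glia genes r was 0.42 for Aldoc, 0.22 for Slc1a2 and 0.01 for Slc39a12, and with the 18 spiral ganglion and shared neuron genes 0.51, 0.34 and 0.12. With the 13 cochlear supporting cell genes r was 0.58, 0.40 and 0.41, and with the 10 cochlear hair cell genes 0.49, 0.44 and 0.44. Without the 2 farthest arrays, supporting cell genes gave 0.50, 0.41 and 0.46, and hair cell genes 0.61, 0.63 and 0.43. Schwann genes then gave 0.26, 0.00 and -0.07, and spiral ganglion genes 0.40, 0.17 and 0.07. How far the brain cell markers account for the values of the 3 genes was not tested.

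**Figure D4:**
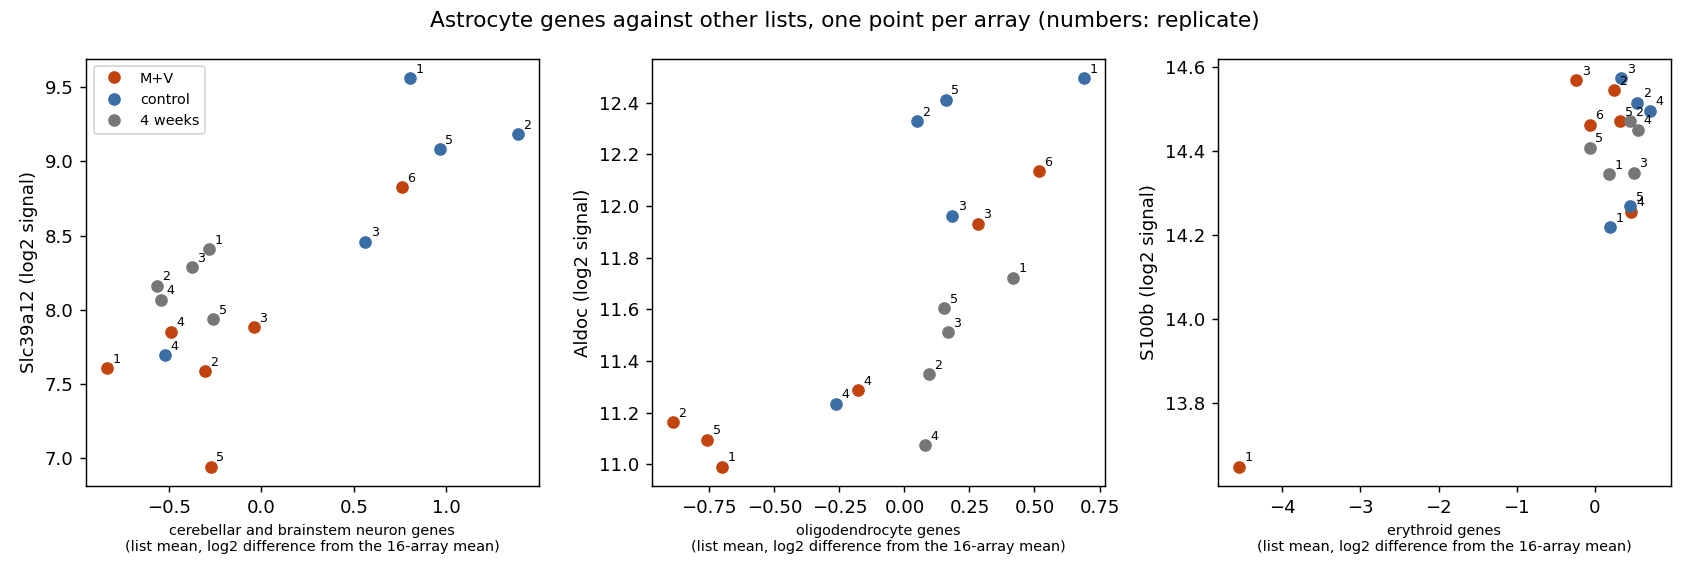
Log2 signal of Slc39a12, Aldoc and S100b (vertical axes) against the mean level of cerebellar and brainstem neuron, oligodendrocyte and erythroid genes (horizontal axes, log2 difference from the 16-array mean), with 1 point per array numbered by replicate. In the left and middle panels M+V replicate 6 lies with the control arrays and control replicate 4 with the M+V arrays. In the middle panel M+V replicate 3 also lies near the control arrays, and in the right panel M+V replicate 1 lies alone.

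The deviations of S100b correlated with those of the 12 end-foot, potassium and water genes at r = 0.84 (rho 0.57), which was 0.55 without M+V replicate 1. They correlated with those of the 8 erythroid genes at r = 0.85 (rho 0.54), which dropped to 0.41 without M+V replicate 1, and with the 12 fibrocyte genes of the spiral ligament and limbus at r = 0.82 (rho 0.68), which was 0.63 without it. With the oligodendrocyte mean r was 0.12. The part of that array's composition in its S100b value was not tested.

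The wider astrocyte programme was read from lists of other genes. Of 32 other astrocyte genes, 31 were on the array and 24 of these were at or above the array median in all arrays. M+V against control gave 9 above and 22 below 0 with a median of -0.20 and none past the adjusted threshold, and control against 4 weeks a median of 0.07 and none. At an unadjusted limma p under 0.05, 8 of the 31 were lower in M+V than in control (4.08% of all probes) and 0 higher (3.71%). The 8 were Ntsr2 (-1.14), Slc7a10 (-0.92), Itih3 (-0.86), Acsbg1 (-0.85), Ttyh1 (-0.74), Slc4a4 (-0.64), Gdf10 (-0.50) and Bcan (-0.35). Slc7a10, Itih3 and Acsbg1 had a mean under the array median. The 3 brightest genes of the list, Clu, Sparcl1 and Gjb6, gave 0.05, -0.23 and 0.01 for M+V against control. Which cells of the cochlea gave these 3 signals was not tested. Only Gja1, a gap junction protein of astrocytes and many other cells, passed the adjusted threshold, in M+V against 4 weeks. Its log2 signal was 12.74, 12.11, 12.12, 12.51, 12.39 and 12.77 in M+V, and 12.87, 12.95, 12.65, 12.34 and 12.61 in control, against 13.26, 13.24, 13.26, 13.25 and 13.20 in 4 weeks cochleae. All M+V and control values lay below all 4 weeks values, at -0.80 for M+V (SE 0.12, adjusted p = 0.00232) and -0.56 for control (SE 0.13, adjusted p = 0.0707, which misses the threshold). Deviations of Aldoc correlated with those of this list at r = 0.92 (rho 0.92).

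Between M+V and control, where 0% of all probes were called, none of the genes known to rise in reactive astrocytes passed. Of 19 on the array, 12 were above and 7 below 0 for M+V against control (median 0.12), and the brightest, Cp, Lcn2 and Vim, gave 0.22, 0.15 and 0.19. S1pr3, a sphingosine phosphate receptor, was lower in M+V than in 4 weeks cochleae, at -1.02 (SE 0.11, limma adjusted p = 9.02e-05), and lower in control than in 4 weeks cochleae, at -0.90 (SE 0.12, adjusted p = 0.000734), and the M+V and control groups differed by -0.12 (SE 0.11, adjusted p = 0.812). Serpina3n and Tgm1 stayed below the array median in all arrays. The 12 end-foot, potassium and water genes (among them anchoring proteins, potassium channels and other water channels) had a median of -0.00 for M+V against control. None of them passed the test in any comparison. The 13 other genes of glutamate uptake and the glutamine cycle had a median of -0.09, with 4 above and 9 below 0 and none past the test. The 3 brightest, Slc38a2, Glul (glutamine synthetase) and Glud1, gave -0.09, -0.06 and 0.17 (SE 0.08, 0.13 and 0.10).

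The other zinc importers were set beside Slc39a12. Of 13 members of the ZIP family on the array, 9 were above and 4 below 0 for M+V against control, with a median of 0.20 and none past the adjusted threshold. At an unadjusted p under 0.05, 4 of the 13 were higher (3.71% of all probes) and 0 lower. The brightest, Slc39a10, Slc39a1 and Slc39a7, gave -0.20, 0.28 and 0.11 with SE 0.11, 0.13 and 0.09. Slc39a4 (Zip4), a zinc importer of the intestine that the study also stained in cochlear tissues, is named here after its values were seen. Its log2 signal was 6.78, 8.03, 7.48, 6.48, 6.59 and 7.54 in M+V, against 6.68, 5.43, 5.75, 6.31 and 6.24 in control cochleae, a difference of 1.07 (SE 0.31, limma adjusted p = 0.570). Control replicate 1 lay above M+V replicates 4 and 5, so the groups overlapped. All control values and those of M+V replicates 1, 4 and 5 were under the array median. The study also picked Slc39a4 from these same arrays, so this difference too is a description. Apart from the arrays, the study reported higher Slc39a4 RNA in M+V than in control cochleae by quantitative RT-PCR.

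Among 11782 other genes whose mean reached the array median, those with deviations most like each gene were searched over the 16 arrays. Slc39a12 was closest to Ntsr2, a neurotensin receptor of astrocytes (r = 0.91, rho 0.89), then to Slx4 and Qdpr. Slc1a2 was closest to Slc12a5, the neuronal chloride exporter (r = 0.87, rho 0.71), Ttyh1 and Dip2a, and Aldoc to the neuronal genes Nsg2 and Negr1 and to Slc4a4, a bicarbonate transporter of astrocytes (r = 0.90 for each). Aldh1l1 was closest to Morn4 (r = 0.96), S100b to Ctnnd1 (r = 0.92), Slc1a3 to Tbc1d12 (r = 0.88), Aqp4 to Ypel2 (r = 0.87) and Gfap to Uqcc3 (r = 0.80). These are the highest of many values and carry no test.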

How the data were processed

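Total RNA of whole left cochleae was hybridised to 1 array per mouse, with no pooling. The authors computed MAS5 signals (GCOS and MAS5 per the labels, versions not given in the sources used here), quantile-normalized all 16 arrays together in R and deposited log2 values of 45101 probes, so the sorted values are the same in every array (largest difference 0). This sets a shift shared by most probes to 0. Groups and replicate numbers were taken from the labels, and nothing says how mice were distributed over batches. With arrays, their number limits the precision.

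The 64 control probes were left out and signals under 1 (0.870% of values) were set to 1. Probe symbols came from the platform annotation (34958 probes with 1 symbol, 932 with several, 9211 with none), and 34754 probes were matched by gene ID to RefSeq, assembly GRCm38.p6. A probe that names Slc1a2 together with another gene was not used. The 3 groups were compared with limma 3.58.1 in R 4.3.3 (a mean per group over all 16 arrays, eBayes with a trend, two-sided, Benjamini-Hochberg over 45037 probes, adjusted p under 0.05). No filter on low values was set, since 12 of the 25 astrocyte probes would have been lost to one. The gene's brightest probe over all arrays stands for the gene. The script was tested on simulated data.

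The genes and lists were chosen with earlier results of these data known. Named beside the 8 genes is any list gene past the threshold. The other astrocyte genes with an unadjusted limma p under 0.05 between M+V and control are named too. The 3 brightest genes are named only for the cerebellar and brainstem neuron, oligodendrocyte, other astrocyte, reactive astrocyte, glutamate and ZIP lists. Of the 3 genes most like each gene, all are named for Slc39a12, Slc1a2 and Aldoc and only the closest for the other genes. Some genes below the array median in all arrays were named by choice. The lists share a few genes, such as Kcnj10 and Atp1b2. Alternatives covered the filter, the trend, the groups in the fit, the replicate number and the bioB level as blocks, Welch's test of the study's methods, the normalization, the pseudocount, array weights, the probe choice and each array left out. Promoter windows came from RefSeq for 7 of the 8 genes. Proteins were not used here.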

Additional observations from a re-analysis of the deposited data

Results flagged for a closer look

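In 24 groups of values (8 genes in 3 groups), 3 had an array farther from the rest than Dixon's 95% limit, where chance gives about 1 group in 20. Aqp4 in control replicate 4 was 10.34, with the nearest control array at 11.03 (gap over range 0.743, limit 0.710). Slc1a2 in control replicate 4 was 9.43, with the nearest at 10.59 (0.860, limit 0.710). S100b in M+V replicate 1 was 13.65, with the nearest M+V array at 14.26 (0.660, limit 0.625). Control replicate 4 was also the lowest control array for the cerebellar and brainstem neuron genes and for the oligodendrocyte genes, and M+V replicate 1 the lowest array for the erythroid genes. The part of either in these values was not tested.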

How the results depend on the processing

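M+V against control called 0 probes, and 0 astrocyte probes, without each replicate in turn and under every alternative but these: 37 probes and 1 astrocyte probe (Slc39a12) in arrays of the high bioB level alone, with 1 control array, 194 and 1 with Welch's test at the methods' thresholds (fold over 1.5, unadjusted p under 0.05), and 1553 and 3 with limma at those thresholds. M+V against 4 weeks called 835 probes, against 317 without trend, 362 with the 2 groups alone, 257 with the methods' test after Benjamini-Hochberg, 2698 at the methods' thresholds with limma and 1496 with array weights. Leaving out a replicate gave 348 (without 4 weeks replicate 4) to 1398 (without M+V replicate 3), and the bioB level as a block called 1 astrocyte probe (Gfap). Control against 4 weeks called 200 probes, against 95 without trend, 499 with the 2 groups alone, 25 in high bioB arrays, 488 with Welch's test and 1872 with limma at the methods' thresholds, 549 with array weights and 107 (without control replicate 5) to 401 (without M+V replicate 1) when a replicate was left out. The limma thresholds took 3 astrocyte probes there. Replicate numbers did not pair the samples (median r of same-numbered arrays 0.0102, 0 of 15 pairs over 0.1), and the replicate block gave 0, 493 and 123 probes and no astrocyte call.

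The sign of Slc1a2, Aldoc and Slc39a12 for M+V against control was the same under every alternative. Without 1 replicate they ranged from -1.01 to -0.65, -0.87 to -0.55 and -1.29 to -0.82, with no call. With the median over a gene's probes, most of them dim, they were -0.12, -0.57 and -0.37. Taken singly, the other Slc1a2 probes gave -0.31 to 0.74 and the other Slc39a12 probe 0.27. These probes were under the array median in every array. Other signs reversed. For M+V against control these were Gfap in high bioB arrays (0.14) and Aldh1l1 with the probe median (0.44). For M+V against 4 weeks they were Slc1a3 with array weights (-0.010) and the probe median (-0.17), Aldoc with array weights (0.055) and the probe median (0.25), Aldh1l1 with the bioB block (-0.025) and in high bioB arrays (-0.15), and Slc39a12 with the probe median (0.23). For control against 4 weeks they were Aqp4 in high bioB arrays (0.042), with array weights (0.017) and the probe median (0.018), and S100b with the bioB block (-0.24), in high bioB arrays (-0.19) and with the probe median (-0.10). Leaving out a replicate turned Gfap (-0.29 to 0.17) and S100b (-0.14 to 0.046) for M+V against control, Slc1a3 (-0.035 to 0.13), Aldoc (-0.16 to 0.070) and S100b (-0.13 to 0.056) for M+V against 4 weeks, and Aqp4 (-0.074 to 0.16) and S100b (-0.031 to 0.058) for control against 4 weeks. The cause was not tested. Probes under the array median, 9 of 25 here in every array, are close to background and their folds are the least precise.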

Other observations

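Other list genes that passed the limma test lay in the comparison of M+V with 4 weeks cochleae. Ugt8a, which makes the myelin lipid galactosylceramide, was lower in M+V, at -1.14 (SE 0.24, adjusted p = 0.0191), with M+V replicates 1 and 2 lowest at 10.69 and 10.39. Pmp22, a protein of peripheral myelin, was lower, at -1.08 (SE 0.25, adjusted p = 0.0339), and the same replicates were lowest at 12.09 and 11.99. Dcn, a proteoglycan of fibroblasts, was lower, at -0.58 (SE 0.14, adjusted p = 0.0431), again with these replicates lowest at 13.08 and 12.92. Replicates 1 and 2 were the M+V arrays of the higher bioB level. Tfrc, the transferrin receptor and a gene of the erythroid list, was lower, at -0.52 (SE 0.11, adjusted p = 0.0165). Its lowest value, 12.42, lay in M+V replicate 1. Tmem119, a microglia gene also made by bone cells, was lower in M+V, at -0.72 (SE 0.15, adjusted p = 0.0158), and lower in control than in 4 weeks cochleae, at -0.87 (SE 0.15, adjusted p = 0.0104). None of these genes passed between M+V and control, where 0% of all probes did.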
